A study of Mus musculus with 8 samples.

Results

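The genes described here write and read histone acetylation: 9 genes, 7 of them acetyltransferases (Ep300, Crebbp, Kat2a, Kat2b, Kat5, Kat6a and Kat7) and 2 of them BET readers (Brd2 and Brd3). Every array probe whose RefSeq accession maps to one of these symbols was taken, which gave 14 of the 55681 probes on the array (9 of 20887 genes named from accessions). One probe each measured Ep300, Crebbp, Kat2b, Kat6a and Kat7, 2 probes each measured Kat2a, Kat5 and Brd2, and 3 measured Brd3. All 14 were well above background in Cy5 on all 8 arrays, so none was lost to the filter on dim probes, which kept 30364 probes.

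Histone acetyltransferases place acetyl groups on lysines of histone tails, and histone deacetylases such as Hdac1 and Hdac2 take them off. BET proteins bind acetylated histones through paired bromodomains and help recruit the transcription machinery. The level of an mRNA measured here is not the activity of the enzyme, and no acetylation was measured on these arrays.

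RNA came from pools of cells sorted for EGFP from C57BL/6 mouse kidneys at embryonic day 15.5. The 4 mutant pools were Six2CreEGFP+; HDAC1&2 f/f and the 4 wildtype pools Six2CreEGFP+; HDAC1&2 +/+, so both carried the transgene, which drives Cre and EGFP from Six2 in nephron progenitors, and deletion is limited to cells in which Cre has acted. Each pool was labelled with Cy5 and set against the RNA of wildtype pool 1 in Cy3, and values below are log2 ratios of Cy5 over Cy3 unless another quantity is named. The spread between pools 3 and 4 was within technical noise in both groups, so their mean was used as 1 sample. This left 3 mutant and 3 wildtype samples, although the labels call all 4 pools of a group biological replicates. The sources used here do not give the number of embryos in a pool. The mutant pool 1 array departed most from the other arrays at 11 of the 14 probes, and values without it are given beside those with it. Over all probes tested that array also had the largest median departure (0.23).

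Across the array 8 of 30364 probes passed limma at an adjusted p under 0.05, which is 0.0263%. With the pool number as a block 35 passed, or 0.115%. The deleted genes were checked first. Hdac1 read -0.070, -0.14 and -0.20 in mutant samples at its brightest probe, against 0.20, 0.14 and 0.15 in wildtype samples (pool 1, pool 2 and the mean of pools 3 and 4, an order kept below). That is a difference of -0.30 ± 0.09 (SE, limma adjusted p = 0.58), and its other probes differed by -0.40 ± 0.09 and -0.57 ± 0.14. Hdac2 differed by -0.13 ± 0.14 (limma adjusted p = 0.879) and by -0.0043 ± 0.11 without mutant pool 1, at a probe with outlier spots on 5 of 8 arrays. It was not analysed here where these probes bind, and only probes within floxed exons check the deletion. The 10 nephron progenitor markers were well above background on all arrays. Their median difference was -0.23, with 8 of 10 lower in mutant samples, and their median ratio was -0.37 to 0.085 in mutant samples and -0.015 to 0.22 in wildtype samples. Of these, 1 passed the test: the co-regulator gene Cited1 fell by 2.72 on the log2 scale (SE 0.13, limma adjusted p = 0.00355). All 8 stroma markers had a higher mutant mean (differences of 0.20 to 0.50) and none passed. Their median ratio was 0.12 to 0.39 in mutant samples and -0.099 to 0.076 in wildtype samples. Medians were 0.033 for 6 endothelial markers, 0.22 for 7 ureteric bud markers, -0.00036 for 4 leukocyte markers and 0.034 for 5 erythroid markers, with none called. The part of other cells in the values below was not tested.

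None of the 14 probes of the acetyltransferase and BET genes passed the test in limma. Crebbp, Kat6a and Kat7 read nearly the same in both groups, and Ep300 was lower in 2 of 3 mutant samples. At every probe of Kat2a, Kat2b, Kat5 and Brd3 the mutant pool 1 array was the highest or the lowest sample. It was also the lowest at Crebbp and Kat6a and the highest at the brighter Brd2 probe. Adjusted p-values ranged from 0.873 to 0.997 in limma and from 0.559 to 0.994 with the block. At an unadjusted p under 0.05 the count was also 0 of 14, where 6.45% of all probes tested were under it. Of the 14 differences 9 were below 0, against 50.7% of all probes. The median difference of the 14 was -0.047, beside -0.0030 over all probes tested. With median centring in place of loess these medians were 0.061 and 0.065. The exact permutation test gave p from 0.1 to 1, and 0.1 is the smallest p that 3 against 3 samples allow. In bulk RNA, fewer cells of a type and less RNA per cell cannot be told apart.

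**Figure D1:**
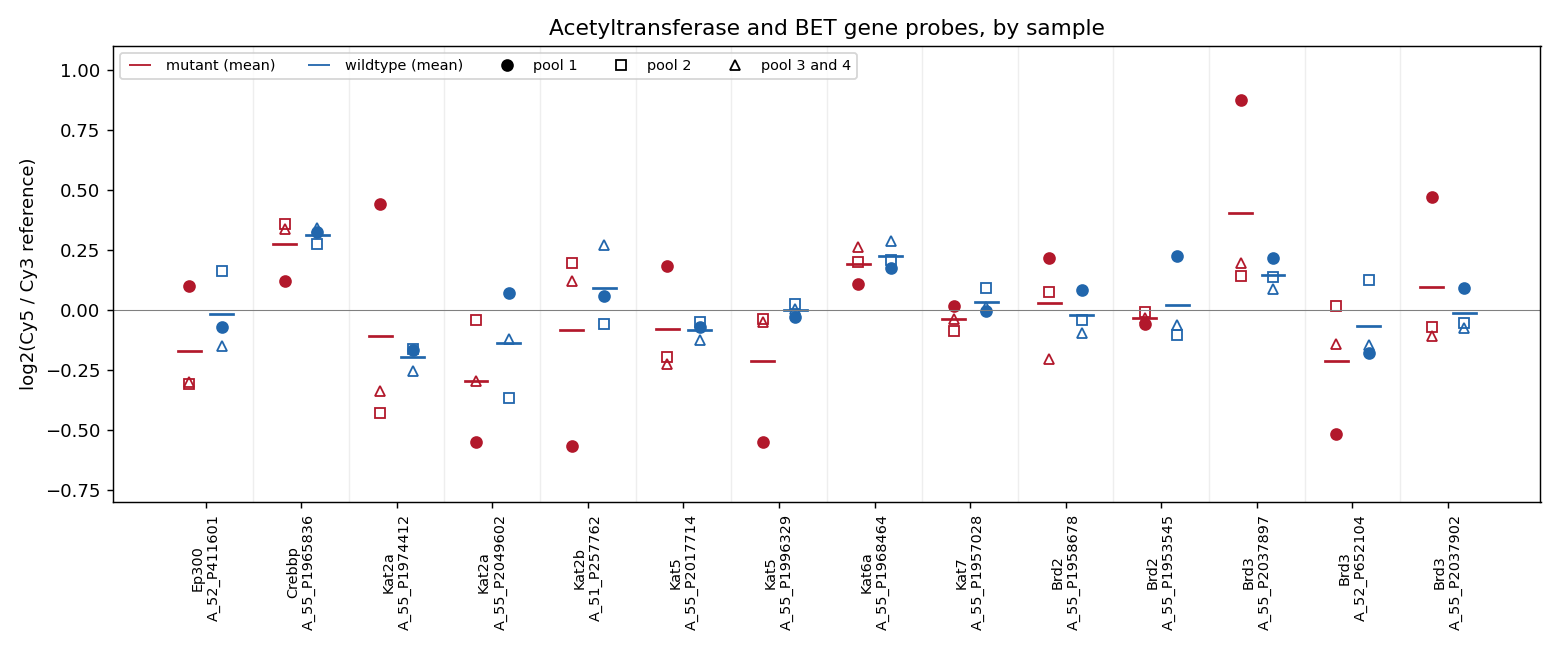
Log2 ratio of Cy5 over the Cy3 reference for each of the 14 probes, with mutant samples (red) left of wildtype samples (blue), a symbol for each pool and a bar for the group mean. Mutant pool 1 (filled red circle) lies apart from the other samples at several probes, for example at 0.87 for the brightest Brd3 probe, where the other samples read 0.084 to 0.22.

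Ep300 encodes p300 and Crebbp encodes CBP, closely related acetyltransferases that serve as co-activators for many transcription factors and acetylate histone H3 at enhancers. Ep300 read 0.099, -0.31 and -0.30 in mutant pools, against -0.071, 0.16 and -0.15 in wildtype pools. The mutant samples of pool 2 and of pools 3 and 4 lay below all wildtype samples and mutant pool 1 lay among them, so the groups overlapped. The difference was -0.15 ± 0.15 (SE), with a 95% interval of 70.4% to 115% of the wildtype level (limma adjusted p = 0.878). Without mutant pool 1 Ep300 differed by -0.29 ± 0.12 (SE), and it was the 1 probe of 14 whose interval then left out 100% of wildtype (67.7% to 99.4%, limma adjusted p = 0.598 over all probes). Over all probes, 2502 of 30364 had an unadjusted limma p under 0.05 in that fit, so 1 of 14 does not set these genes apart. Without wildtype pool 2, the sample with the highest Ep300 value, the difference was -0.061 ± 0.16 (SE). Without both of these arrays it was -0.20 ± 0.097 (SE). Under all 21 alternative settings the Ep300 difference stayed below 0, between -0.54 and -0.061. Several of these settings, such as the block and the changes of the dim-probe filter, cannot change a difference and do not test its sign. The -0.54 came from Cy5 levels alone, where Ep300 read 10.8 (log2) on the wildtype pool 2 array and 9.10 to 9.66 on the others.

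Crebbp read 0.12, 0.36 and 0.34 in mutant pools, against 0.32, 0.27 and 0.34 in wildtype pools. All samples but mutant pool 1 lay within 0.27 to 0.36. The difference was -0.041 ± 0.10 (SE, limma adjusted p = 0.944), and the interval ran from 81.9% to 115% of wildtype. The wildtype pool 1 array, with the same RNA in both dyes, read 0.32 for Crebbp, so the positive ratios of this probe do not measure a difference from that pool. Over the 14 probes that array read from -0.18 to 0.32.

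Kat2a (GCN5) and Kat2b (PCAF) are the alternative catalytic subunits of the SAGA and ATAC co-activator complexes. The brighter Kat2a probe read 0.44, -0.43 and -0.34 in mutant pools, against -0.17, -0.16 and -0.25 in wildtype pools. Its mutant samples thus lay on both sides of all wildtype samples. The difference was 0.086 ± 0.22 (SE, limma adjusted p = 0.945) and turned to -0.19 ± 0.09 without mutant pool 1. The other Kat2a probe read -0.55, -0.043 and -0.30 in mutant pools, against 0.071, -0.37 and -0.12 in wildtype pools. Here mutant pool 1 was the lowest sample, where at the brighter probe it was the highest. That probe differed by -0.16 ± 0.17 (SE), with an interval of 68.1% to 118% of wildtype, and by -0.030 ± 0.15 without mutant pool 1.

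Kat2b read -0.57, 0.19 and 0.12 in mutant pools, against 0.055, -0.061 and 0.27 in wildtype pools. Mutant pool 1 was below all other samples, and the other mutant samples lay within the wildtype range. The difference was -0.17 ± 0.21 (SE, limma adjusted p = 0.885), and its lower limit, 62.5% of wildtype, was the lowest of the 14 probes. Without mutant pool 1 Kat2b differed by 0.068 ± 0.12 (SE), and the interval was 86.0% to 128% of wildtype.

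Kat5, Kat6a and Kat7 belong to the MYST family. Kat5 (TIP60) is the catalytic subunit of the NuA4 complex and acts in transcription and DNA repair, Kat6a (MOZ) acts with BRPF scaffold proteins, and Kat7 (HBO1) acts with BRPF or JADE scaffolds. At the brighter Kat5 probe mutant pools read 0.18, -0.20 and -0.23, against -0.071, -0.052 and -0.13 in wildtype pools. The difference was 0.0028 ± 0.13 (SE), and the interval ran from 80.7% to 124% of wildtype. It was -0.13 ± 0.085 without mutant pool 1. At the other Kat5 probe mutant pools read -0.55, -0.040 and -0.051, against -0.029, 0.025 and 0.0020 in wildtype pools. This was the only one of the 14 probes whose groups did not overlap, where 13.6% of all probes with a value in every sample had groups apart. Its difference of -0.21 ± 0.15 (SE, limma adjusted p = 0.873, exact permutation p = 0.1) became -0.045 ± 0.084 without mutant pool 1.

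Kat6a and Kat7 had narrow ranges in both groups. Kat6a read 0.11, 0.20 and 0.26 in mutant pools, against 0.18, 0.21 and 0.29 in wildtype pools. Its difference of -0.033 ± 0.096 (SE, limma adjusted p = 0.952) left an interval of 83.6% to 114% of wildtype. Kat7 read 0.016, -0.091 and -0.038 in mutant pools, against -0.0065, 0.090 and 0.013 in wildtype pools. Its difference was -0.070 ± 0.092 (SE, limma adjusted p = 0.890), and its interval of 82.0% to 111% of wildtype was the narrowest of the 14. For both genes the groups overlapped. Without mutant pool 1 Kat6a differed by 0.0082 and Kat7 by -0.096, and Crebbp by 0.035.

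Brd2 and Brd3 are BET family readers that bind acetylated histone tails on transcribed genes. The brighter Brd2 probe read 0.21, 0.073 and -0.21 in mutant pools, against 0.080, -0.045 and -0.096 in wildtype pools. In both groups pool 1 was the highest and pools 3 and 4 the lowest, and the difference was 0.047 ± 0.13 (SE, 83.2% to 128% of wildtype). The other Brd2 probe read -0.060, -0.010 and -0.033 in mutant pools, against 0.22, -0.10 and -0.065 in wildtype pools. It was the only probe of the 14 with a larger SD in wildtype samples, and its difference was -0.052 ± 0.12 (SE, limma adjusted p = 0.934).

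Brd3 had the highest single value. Its brightest probe read 0.87, 0.14 and 0.20 in mutant pools, against 0.22, 0.14 and 0.084 in wildtype pools. Mutant pool 1 stood alone, and the other mutant samples lay within the wildtype range. The difference was 0.26 ± 0.20 (SE, limma adjusted p = 0.873), the highest of the 14, and 0.023 ± 0.090 without mutant pool 1. The second Brd3 probe read -0.52, 0.016 and -0.14 in mutant pools, against -0.18, 0.12 and -0.15 in wildtype pools. The third read 0.47, -0.073 and -0.11 in mutant pools, against 0.092, -0.056 and -0.074 in wildtype pools. On the mutant pool 1 array the 3 Brd3 probes therefore lay both far above and far below 0, and their differences were 0.26, -0.15 and 0.11. Without that array the second probe differed by 0.0038 and the third by -0.078, and the brighter and dimmer Brd2 probes by -0.046 and -0.039.

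**Figure D2:**
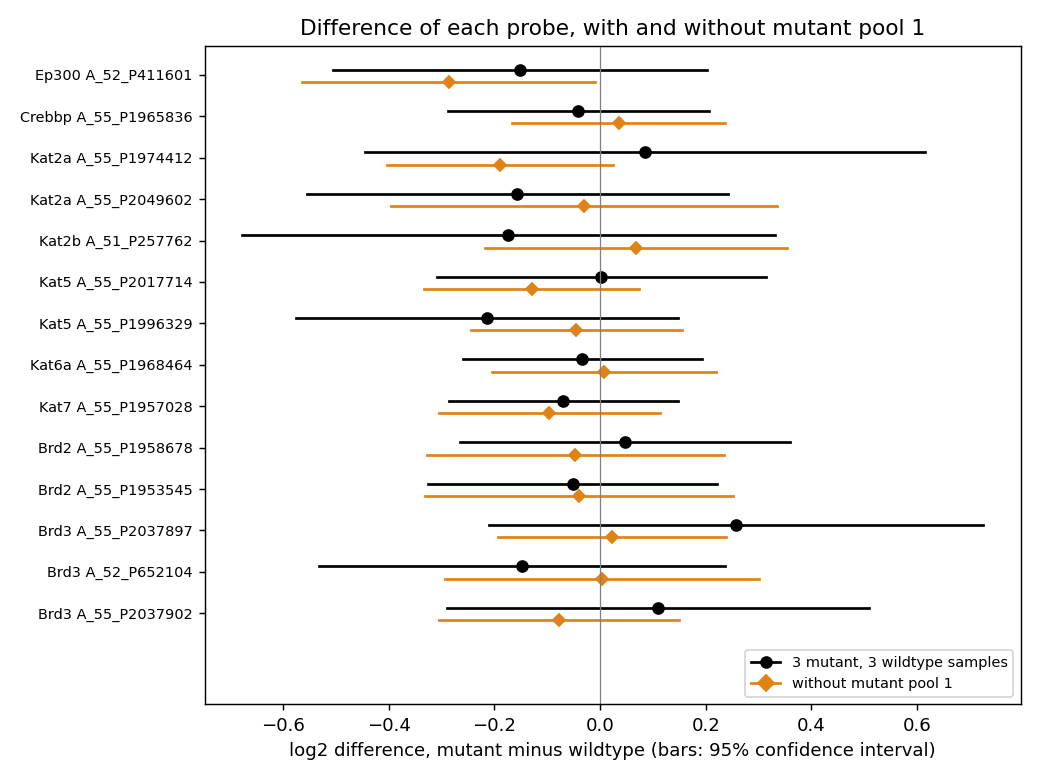
Log2 difference (mutant minus wildtype) of each of the 14 probes with its 95% confidence interval in limma, from 3 mutant and 3 wildtype samples (black) and without mutant pool 1 (orange). All 14 black intervals include 0, and 13 of 14 intervals were narrower without mutant pool 1.

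The limits of the 14 intervals hold for the main processing and move with it. The lowest lower limit was 62.5% of wildtype (Kat2b) and the highest upper limit was 165% (brightest Brd3 probe). Without mutant pool 1 the lowest lower limit was 67.7% (Ep300) and the highest upper limit 128% (Kat2b). These intervals cover the spread between the samples, and they do not show that levels were equal. Other processing gave wider spreads at some probes. With Agilent processed signals Kat2b differed by -0.40 ± 0.46 (SE), and on Cy5 levels alone Ep300 differed by -0.54 ± 0.41 (SE). Probes also differed in brightness: log2 Cy5 levels over the arrays were 6.36 to 7.71 for Kat2b. They were 6.82 to 8.18 for the dimmer Brd2 probe and 14.3 to 14.6 for the brighter. The part of brightness in these spreads was not tested.

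The widest departures came from 1 array. The mutant SD exceeded the wildtype SD at 13 of 14 probes, where the same held for 67.2% of all probes. SDs ran from 0.025 to 0.48 in mutant samples and from 0.027 to 0.22 in wildtype samples. Of the 8 arrays, mutant pool 1 departed most from the mean of the others at 11 of the 14 probes, a share not counted over all probes. The median size of its departure was 0.36 over the 14 probes and 0.23 over all probes tested. On the other 7 arrays these medians were 0.043 to 0.14 over the 14 probes and 0.095 to 0.15 over all probes. Taken dye by dye after quantile normalization of average levels, the median departure of mutant pool 1 was 0.31 in Cy5, which held the pool, and 0.097 in Cy3, which held the reference.

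Probes of one gene disagreed on that array. The SD between probes was 0.72 for Brd3, 0.70 for Kat2a, 0.52 for Kat5 and 0.19 for Brd2 on the mutant pool 1 array. On the other 7 arrays it was at most 0.27 for these 4 genes. Over 3916 genes with several probes its median was 0.24 on the mutant pool 1 array and 0.083 to 0.14 on the others. The part of RNA quality, labelling or transcript ends in this disagreement was not tested.

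**Figure D3:**
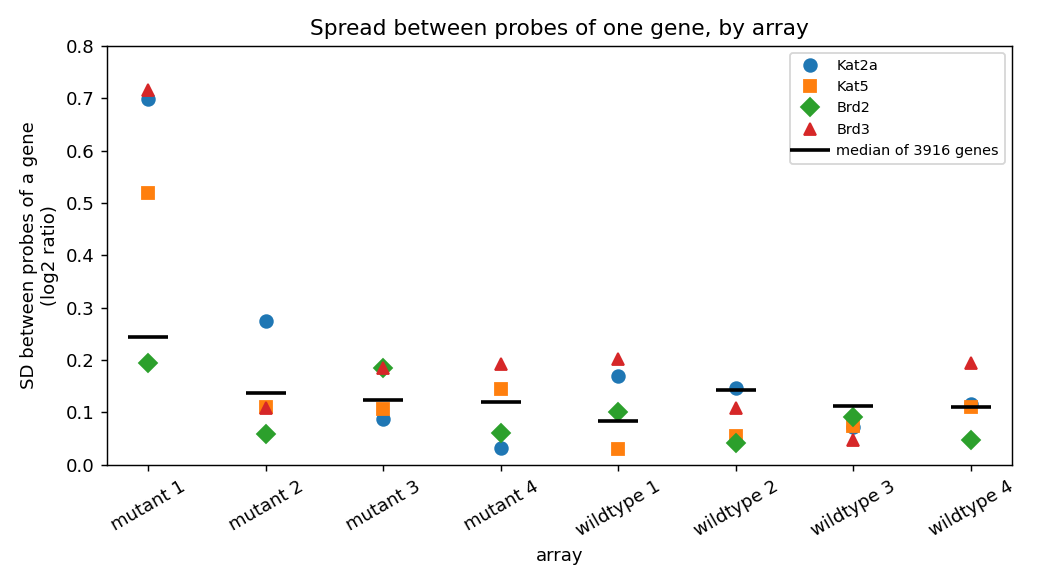
Standard deviation between the probes of one gene (log2 ratio) on each array, for Kat2a, Kat5 and Brd2 (2 probes each) and Brd3 (3 probes), with the median over 3916 genes as a bar. Brd3, Kat2a and Kat5 reach 0.52 to 0.72 on the mutant pool 1 array.

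Other genes of the same machinery were read from 6 lists. For each list the 2 genes with the smallest unadjusted p at their brightest probe are named, and values are for that probe unless another is given. Of 72 listed genes 71 were measured, by 104 probes, and 0 probes passed limma with or without the block. At an unadjusted p under 0.05 there were 2. Groups did not overlap at 3 probes with the mutants higher, where 8.05% of all probes did so, and at 16 with the mutants lower, where 5.6% did so. All probes share the same 6 samples, so they do not count as separate evidence.

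NuA4 subunits, the partners of Kat5, had the lowest median. Of 24 probes for 16 genes 22 were below 0, with a median difference of -0.15, and 0 passed. Without mutant pool 1 the median was -0.13 with 17 of 24 below 0, beside 0.017 over all probes tested. On Cy5 levels alone it was -0.15 with 15 of 24 below 0, beside 0.12 over all probes. The NuA4 median was -0.064 with median centring, beside 0.065 over all probes. Without mutant pool 1 and wildtype pool 2 it was -0.070 with 15 of 24 below 0, beside -0.00041 over all probes. Ing3, a subunit that binds methylated histone H3, read -0.68, -0.042 and -0.25 in mutant pools, against 0.011, 0.13 and 0.018 in wildtype pools (difference -0.38 ± 0.17 SE, limma adjusted p = 0.807). Morf4l2 read -0.16, -0.22 and -0.26 in mutant pools, against 0.064, -0.045 and -0.11 in wildtype pools (difference -0.19 ± 0.10 SE, limma adjusted p = 0.847). At these probes all mutant samples were below all wildtype samples. The other Ing3 probe (-0.095 ± 0.12) and the other Morf4l2 probe (-0.034 ± 0.11) had overlapping groups. The Ing3 difference at the brightest probe was -0.20 ± 0.10 without mutant pool 1. Meaf6, a subunit shared by MYST complexes, gave 1 of the 2 unadjusted p-values under 0.05 (difference -0.39 ± 0.14 SE, limma adjusted p = 0.675), at a probe named after its value was seen. The brighter Meaf6 probe differed by -0.16 ± 0.11, with overlapping groups.

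SAGA and ATAC subunits, the partners of Kat2a and Kat2b, had 24 of 30 probes below 0 and a median of -0.11, which was -0.020 without mutant pool 1. The ATAC subunit gene Zzz3 differed by -0.21 ± 0.09 (SE, limma adjusted p = 0.803), with mutant pools at -0.24, -0.10 and -0.11, against 0.046, 0.060 and 0.073 in wildtype pools. The other Zzz3 probe differed by -0.00036 ± 0.10. Trrap, a scaffold of both SAGA and NuA4, differed by 0.24 ± 0.13 (SE, limma adjusted p = 0.853), and by 0.15 without mutant pool 1. Among the scaffolds of Kat6a and Kat7 the median over 9 probes was -0.083. Ing5 differed by -0.20 ± 0.11 and Jade2 by 0.37 ± 0.25 (SE, limma adjusted p = 0.867 and 0.873). These differences were -0.11 and 0.17 without mutant pool 1.

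The other acetyltransferases had a median of 0.028 over 15 probes, with none called. The nuclear receptor co-activator genes Ncoa1 and Ncoa3 differed by 0.45 ± 0.20 and 0.44 ± 0.22 (SE, limma adjusted p = 0.804 and 0.839). At these probes both were higher in the mutant sample of all 3 pairs. A second Ncoa3 probe differed by 0.028 ± 0.25 and the other Ncoa1 probes by 0.35 ± 0.18 and 0.19 ± 0.18. The brightest probes of Ncoa1 and Ncoa3 differed by 0.33 and 0.21 without mutant pool 1. At its brightest probe Ncoa1 read 0.64, 0.055 and 0.47 in mutant pools, against 0.014, -0.38 and 0.18 in wildtype pools. The other BET genes and the elongation factor P-TEFb, which BET proteins help recruit, had a median of -0.071 over 15 probes. Brdt, the BET gene known from the male germline, read 0.34, 0.34 and 0.43 in mutant pools, against 0.032, 0.11 and 0.16 in wildtype pools. At that probe the groups did not overlap, and the difference of 0.27 ± 0.09 (SE) had an unadjusted p of 0.0244 and an adjusted p of 0.661 in limma. At the other Brdt probe the groups overlapped, with a difference of 0.0072 ± 0.17. The P-TEFb cyclin gene Ccnt2 differed by -0.22 ± 0.11 (SE, limma adjusted p = 0.839). The CREB family of transcription factors, known to recruit CBP and p300 to DNA, and its co-activators had a median of 0.045 over 11 probes (0.0048 without mutant pool 1), with Atf1 at -0.21 ± 0.11 and Crtc2 at 0.17 ± 0.13 (SE, limma adjusted p = 0.847 and 0.873). They were -0.15 and 0.067 without mutant pool 1. The other Crtc2 probe differed by -0.20 ± 0.20 and the other Atf1 probe by -0.15 ± 0.12.

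**Figure D4:**
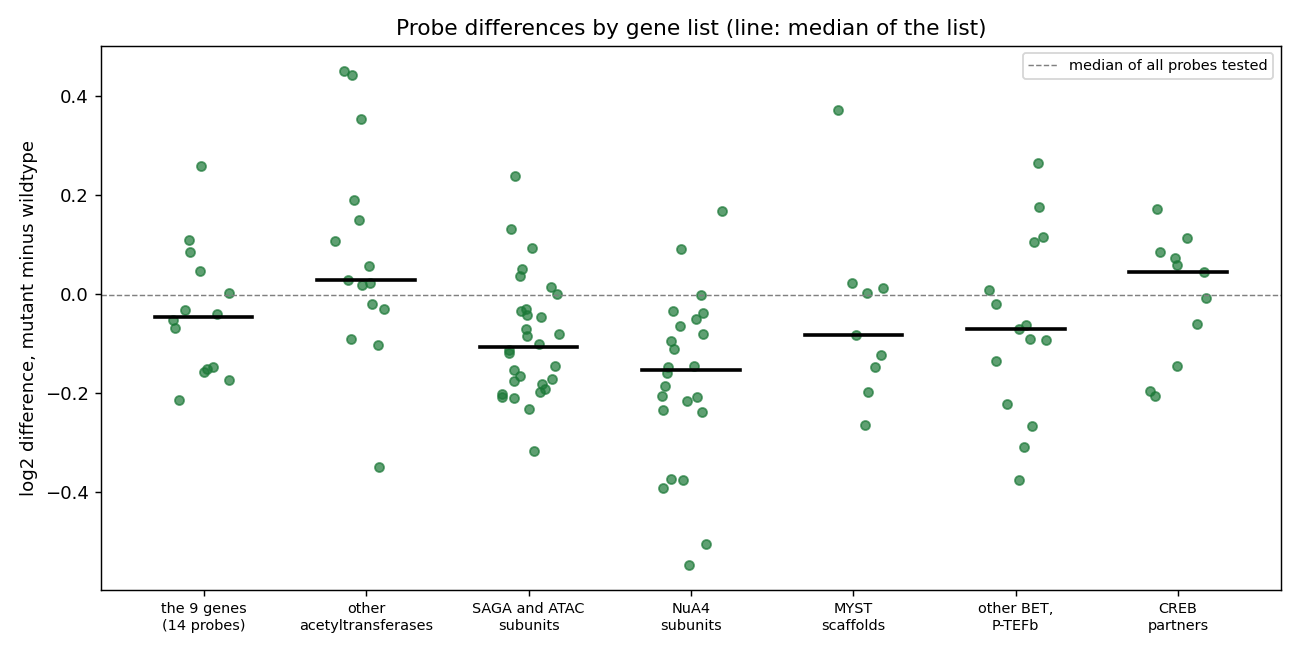
Log2 difference (mutant minus wildtype) of each probe of the 9 genes and of the 6 lists of related genes, with the median of each list as a black bar and the median of all probes tested as a dashed line. The lowest list median is that of the NuA4 subunits at -0.15, and the 9 genes lie at -0.047.

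The gene whose profile over the 6 samples lay nearest to that of each member was found among 13835 other named genes, as the root mean square distance between profiles centred on their own means. For Crebbp it was Ntpcr (distance 0.014 log2 units), for Kat6a Spg7 (0.014), for Kat7 Lrrc75a (0.017) and for Brd3 Pprc1 (0.015). The SD of the member's own profile was 0.082 for Crebbp, 0.058 for Kat6a, 0.055 for Kat7 and 0.27 for Brd3. For the flat profiles of Crebbp, Kat6a and Kat7 a small distance is easily reached among so many genes. Ep300 lay nearest to Elane (0.033), Kat2a to Serinc4 (0.050), Kat2b to Ttc26 (0.039), Kat5 to Zfp768 (0.021) and Brd2 to E130304I02Rik (0.022). Within the 9 genes Crebbp and Kat6a were nearest to each other, at a distance of 0.052, and so were Kat5 and Brd2, at 0.095, and Kat2a and Brd3, at 0.099. Only the brightest probe of each gene was compared. On mutant pool 1 these read 0.44 for Kat2a, 0.87 for Brd3 and 0.18 for Kat5. Another probe of each read -0.55, -0.52 and -0.55 there, and the third Brd3 probe 0.47. Whether the nearness holds at other probes was not tested.

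The 250 bases before the start of each gene were compared in CG dinucleotides, which mark promoters of widely active genes (RefSeq, build GRCm38.p6). Of the 9 genes 8 had a start in the table, with 12 windows, and the windows held from 5 to 44 CG dinucleotides with a median of 16.5. Over 32851 windows of all genes the median was 6, and 23.5% held at least as many as the median of the 12. The windows of the paralogs Ep300 (chr15:81585964-81586213, plus strand, 25 CG) and Crebbp (chr16:4213405-4213654, minus strand, 44 CG) are shown, since both encode the co-activators described first, with each CG in capitals.
Ep300: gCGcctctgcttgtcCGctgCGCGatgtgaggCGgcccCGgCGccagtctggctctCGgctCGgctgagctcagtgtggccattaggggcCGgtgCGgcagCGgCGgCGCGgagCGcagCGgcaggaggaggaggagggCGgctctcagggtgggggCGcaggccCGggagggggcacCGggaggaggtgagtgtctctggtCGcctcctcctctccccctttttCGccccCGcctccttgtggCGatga
Crebbp: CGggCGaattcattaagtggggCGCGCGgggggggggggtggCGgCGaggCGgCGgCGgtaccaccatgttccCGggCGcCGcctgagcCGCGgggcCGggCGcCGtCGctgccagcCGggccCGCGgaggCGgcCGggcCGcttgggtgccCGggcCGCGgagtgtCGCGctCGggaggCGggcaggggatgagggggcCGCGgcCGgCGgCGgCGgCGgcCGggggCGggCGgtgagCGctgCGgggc
Where the array probes lie was not analysed here, and the sequences bear on no difference between the groups.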

How the data were processed

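Spot intensity in the deposited scanner files is linear. Per the file headers, Feature Extraction 10.7.3.1 (Agilent) wrote them, and its processed signals have background removed and dyes balanced. The authors' deposited value table holds log10 ratios of Cy5 over Cy3: it matched the scanner log ratios on every array with correlations of 0.999999, which settled scale and direction, and its column medians were 0 on 7 arrays and 0.00483 on wildtype pool 2.

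Median spot signals were background-corrected in limma 3.58.1 (R 4.3.3) by normexp with an offset of 50 and normalized by loess within arrays, with control and outlier spots at weight 0. Repeat spots were averaged. The filter kept probes that at least 3 of the 4 arrays of a group flagged as well above background in Cy5. Symbols came from probe accessions matched to RefSeq genes (GRCm38.p6), which named 27509 probes; the array annotation uses another build, so no probe coordinates are given.

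Cy5 levels of pools 3 and 4 differed by a median absolute deviation of 0.060 in mutants and 0.057 in wildtype. Other Cy5 pairs differed by 0.11 to 0.41 and Cy3 pairs, of 1 RNA, by 0.045 to 0.078 (21 pairs without wildtype pool 2). Pools 3 and 4 were therefore averaged, although the labels call all pools of a group biological replicates. With 8 arrays as separate samples 254 probes passed limma, where 8 passed after averaging. The sources used here do not say further whether pools of a group share animals, so p-values measure the spread between these samples.

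Mutant and wildtype samples were tested in limma by lmFit and eBayes (two-sided) over all kept probes, with Benjamini-Hochberg adjustment and a threshold of 0.05, after the code was tested on simulated data. Same-numbered pools deviated together (r = 0.516, 0.523 and 0.507 across 29860 probes), so a second fit took the pool number as a block. Samples of the same pool number are called pairs. The main fit had no such block. SEs, intervals and adjusted p-values come from the main fit unless the block or another setting is named. Mutant and wildtype arrays fill separate rows of 1 slide, so slide row and group cannot be told apart. Arrays have no count depth, and their number limits precision. The wildtype pool 2 array had 48627 probes well above background in Cy5 and the others 28150 to 33982. The 9 genes and the lists were chosen with earlier results of these data known. Named beyond the 9 genes are, per list, those 2 with the smallest unadjusted p at their brightest probe, and the nearest profile of each member. Settings tried are in the closing section. Taf1 and the leukocyte marker Cd68 matched no accession and were not used here.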

Additional observations from a re-analysis of the deposited data

How the results depend on the processing

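No probe of the 9 genes, and none of the 6 lists, passed limma under any of the 21 alternatives run, of which leaving out mutant pool 1 and wildtype pool 2 together was chosen after seeing the data. Over all probes the count of 8 became 35 with the replicate block, 39 centred on spike-in probes, 4 with probes well above background on all 8 arrays, 1 on Cy5 levels without the reference, 4 with a trended and robust variance, 254 with 8 arrays as separate samples and 905 with array weights, whose estimation did not converge. It lay between 0 (without wildtype pool 1, where limma run with the other 5 samples left 1252 probes at an unadjusted p under 0.05) and 10 when samples were left out, and was 3 without wildtype pool 2 and 1 without pools 3 and 4 of either group. Spike-in centring moved the median of all probes to -0.14, and Cy5 levels alone to 0.12. Median centring moved it to 0.065 and the median of the 14 probes to 0.061. The replicate block changed no other call.

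Differences that were never called changed sign in places. Spike-in centring subtracts the same value from every probe of an array, so it moved all differences alike. The median of all probes went to -0.14 with spike-in centring and to 0.065 with median centring. Outside spike-in centring the cause of the sign changes was not tested. With median centring Crebbp was 0.071, Kat6a 0.079 and Kat7 0.051. With spike-in centring the brighter Kat2a, Kat5 and Brd2 probes were -0.056, -0.14 and -0.094 and the third Brd3 probe -0.032. On Cy5 levels alone Kat2a was -0.046 and 0.19 at its brighter and dimmer probe, Kat2b 0.13 and the dimmer Brd2 probe 0.35. The wildtype pool 2 array had the lowest log2 Cy5 level of all arrays at Kat2b (6.36) and at the dimmer Kat2a (7.22) and Brd2 (6.82) probes. With array weights Crebbp was 0.0079, Kat6a 0.010, the brighter Kat2a, Kat5 and Brd2 probes -0.11, -0.12 and -0.13, and the third Brd3 probe -0.068. Processed signals and the value table gave -0.0026 and -0.0027 for the brighter Kat5 probe and 0.0049 for Kat6a in both. With 8 arrays as separate samples the brighter Kat5 probe was -0.023. When samples were left out, differences lay between -0.084 and 0.035 for Crebbp, -0.19 and 0.25 for the brighter Kat2a probe, -0.31 and 0.068 for Kat2b, -0.13 and 0.077 for the brighter Kat5 probe, -0.070 and 0.0082 for Kat6a, -0.059 and 0.16 for the brighter and -0.11 and 0.050 for the dimmer Brd2 probe, and -0.26 and 0.10 for the second and -0.10 and 0.21 for the third Brd3 probe. Ep300 and the brightest Brd3 probe kept their sign under all 21 alternatives, and the dimmer Kat5 probe under the 20 that could give it a value. Quantile normalization of average levels, the dim-probe filters, the block, the trended variance and the choice of the brightest probe left these differences unchanged. Such settings do not test the sign. The value table nearly repeated the processed signals (Ep300 -0.109 in both). The smallest limma adjusted p of any member probe was 0.198, for Ep300 with array weights.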
